A study of Mus musculus with 18 samples.

Results

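The chaperone and heat shock genes of mouse thymocytes were followed from 1 month to 6, 16 and 24 months of age. Members were taken by name alone. They were all non-control probes whose gene name in the scanner files began with Hsp (Hspa5, Hsp90b1 and Hspg2 apart), Dnaj or Hsf with a digit, was one of Cct2 to Cct8, or was Stip1. This gave 67 of 41174 probes, which stand for 50 genes among 38354 gene or clone names on the array, and 66 of the 67 passed the filter on dim probes. The probe that did not was a second Cct3 probe. Most members are cytosolic, but the names also took in 3 mitochondrial chaperones, 3 mitochondrial and 6 endoplasmic reticulum J-domain proteins, and Tmem132a, whose older name marks it as a binding partner of an Hsp70 and which is no chaperone. No probe carried a matching name for Hspa1a, Hspa1b, Hspb1 or Cct6a.

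The RNA came from C57BL/6 thymocytes, T cells still maturing in the thymus, and the labels give no genotype or treatment beyond strain and age. Each of 9 Agilent arrays set 1 mouse of 6, 16 or 24 months, in Cy3, against 1 month thymocytes, in Cy5, with 3 mice at each older age. The 1 month RNA is called a pool in the design and 9 single mice in the sample labels. It was treated here as 1 control sample, so the spread between 1 month mice was not estimated. Because no array had the dyes exchanged, age cannot be told apart from dye. Thymi had been dissociated, strained through mesh, washed free of fat and treated to lyse red cells, so the suspensions can hold other cell types, and in such bulk RNA fewer cells of a type cannot be told apart from less RNA per cell.

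Chaperones hold unfolded protein chains until they fold, and most of them work in relays. An Hsp70 takes up a client that a J-domain protein (Dnaj) brings to it, a Hsp110 or another exchange factor resets it, and Stip1 hands the client on to Hsp90, which completes kinases and hormone receptors, among them Lck, the kinase of the T cell receptor. The CCT chaperonin is a double ring of related subunits that folds actin and tubulin, and Hspd1 with its lid Hspe1 does the same work inside mitochondria. Heat shock factor 1 (Hsf1) is the main activator of the inducible members: on protein stress it binds repeated GAA units in alternating orientation in their promoters.

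Values are log2 ratios of the authors' processed signals, older mouse over 1 month, so that a positive value means higher in the older mouse. Each age was set against the reference by limma over all 37448 tested probes and 9 arrays, and a probe is said to have risen or fallen where its Benjamini-Hochberg adjusted p was under 0.05. The members lie on arrays with 79.6% to 94.2% of their features above background in the Cy3 channel and 90.5% to 95.4% in Cy5, and 0 member probes were saturated. All 12 T lineage markers on the array were well above background at every age, with a summed Cy3 signal of 625000 to 1320000 intensity units. Of these, 4 rose and 1 fell at 6 months, and 5 rose and 1 fell at both 16 and 24 months. Calls made up 41.7%, 50% and 50% of them, against 12.4%, 18% and 24.9% of all tested probes. Their medians were 0.31, 0.28 and 0.27. With raw signals only background-corrected and centred on each array's median, these became -0.33, -0.29 and -0.71. Markers of other cells were present too. The 6 erythroid markers summed to 15100 to 21300 in Cy3 at 6 months, 38500 to 326000 at 16 months and 15900 to 176000 at 24 months, against 39600 to 70500 in the reference. The 9 granulocyte markers summed to between 5970 and 9970 at 6 and 24 months but reached 122000 on 1 array of 16 months, against 21900 to 39400 in the reference. The 8 macrophage and dendritic markers ranged from 21200 to 82700 against 20700 to 34900, and the 6 thymic epithelial markers from 4520 to 11400 against 10400 to 16600 in the reference. The 8 B and plasma cell markers summed to 13100 to 17200 at 6 months, 20800 to 39200 at 16 months and 12000 to 28200 at 24 months, against 9950 to 15700. At these ages 0, 4 and 1 of them rose, with medians of -0.0041, 0.54 and 0.26. The rises were 0%, 50% and 12.5% of them, against 7.61%, 11.4% and 11.6% of all tested probes. The part of these markers in the members' values at 16 months was not tested.

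Chaperone genes moved in both directions with age, and by small amounts. At 6 months 10 member probes had risen and 6 had fallen, 24.2% of the 66, where 12.4% of all tested probes passed, 7.61% as rises and 4.76% as falls. At 16 months 16 had risen and 8 had fallen (36.4%, against 18% of all probes, 11.4% as rises and 6.59% as falls), and at 24 months 11 had risen and 10 had fallen (31.8%, against 24.9%, of which 11.6% were rises and 13.3% falls). With 1 probe per gene, 8 genes rose and 6 fell at 6 months, 14 and 8 at 16 months, and 10 and 9 at 24 months, of 50. The median member probe stood at 0.07, 0.13 and 0.05 at the 3 ages, against -0.01, -0.01 and -0.02 for all probes. Among the genes that passed, only Stip1 at 16 months and the measured mean of the dim Hsf2 probe at 24 months differed from the reference by over 2-fold.

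**Figure D1:**
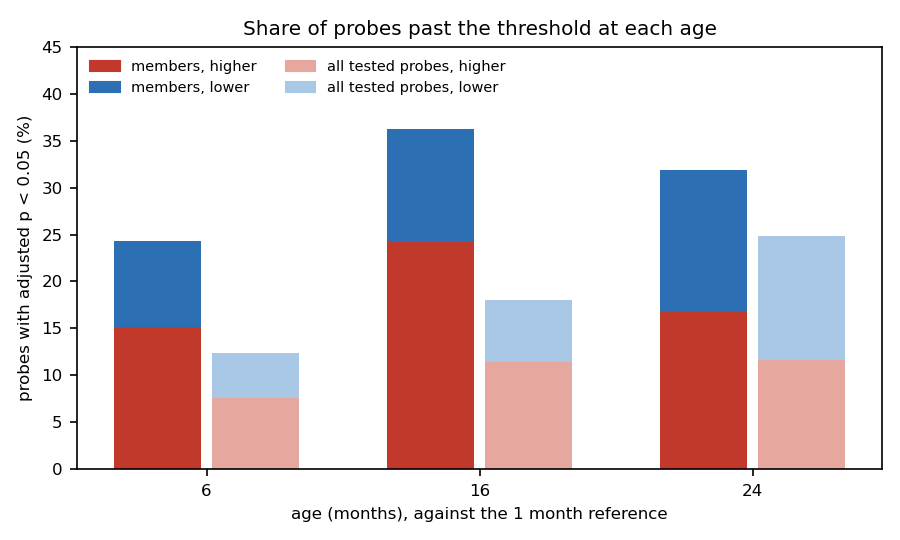
Percent of probes past an adjusted p of 0.05 in limma (y axis) at each age in months (x axis), stacked as higher (red) and lower (blue), for the 66 tested member probes (dark) and all 37448 tested probes (light). The member bars reach 24.2%, 36.4% and 31.8%, against 12.4%, 18% and 24.9% for all probes; without intensity-dependent dye correction the members split the other way, with more falls than rises.

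The direction of the rises rested on the dye correction. Where the raw signals were only background-corrected and centred on each array's median, 52.4%, 44.5% and 70.9% of all tested probes passed at 6, 16 and 24 months, and the member probes split into 7 rises and 20 falls, 4 and 16, and 8 and 31. Under that scaling 2 of the 8 genes that rose at 6 months were below 0, as were 7 of 14 at 16 months and 9 of 10 at 24 months, and 0 of them passed as rises. The falls passed there in 6 of 6, 8 of 8 and 8 of 9 genes, and the exception, Hsf2 at 24 months, turned above 0. That scaling lowered the bright members as a group (Cct5 at 6 months from -0.29 to -0.98), so bright genes already below 0 could only move further down and their passing is no sign of stability. Under normexp background correction with loess, which does correct for intensity, 14 of 14, 22 of 22 and 18 of 19 genes kept their call. With the authors' deposited table the split at 16 months was 12 rises and 10 falls. Of all tested probes 20.3% passed there, 3476 as rises and 4132 as falls. The rises described here are those of the intensity-corrected ratios.

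Leaving out single arrays lowered the counts, among the members as among all probes. Without 6 month replicate 1 the 16 calls at 6 months became 4, and without replicate 2 they became 2, while the share of all probes went from 12.4% to 4.45% and 0.774%. Without 16 month replicate 2 the 24 calls at 16 months became 5, and without replicate 3 14, with 3.31% and 9.19% of all probes. At 24 months, leaving out replicate 1 turned 21 calls into 10 and leaving out replicate 2 turned them into 13, with 9.36% and 10.9% of all probes. The mean log2 ratio of 8 haemoglobin probes was -1.08, -1.01 and -0.66 on the arrays of 6 months, 0.97, 0.56 and -0.40 on those of 16 months and -0.94, 0.15 and 0.67 on those of 24 months. With it as a covariate 2, 15 and 23 member probes passed at the 3 ages, and 1.19%, 10.5% and 23% of all probes; the part of red cell RNA in the members' values was not tested.

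Of the 50 genes, 12 passed in one direction at all 3 ages, which share their reference. The share of all tested probes that passed at all 3 ages was not counted, so this number cannot be set against the array as a whole. The 7 above 0 on all 9 arrays were Stip1, Cct7, Cct8, Hsf1, Hspa4, Dnajc1 and Dnajc7, and the 5 below 0 on all 9 were Cct5, Hspa14, Dnajc15, Dnaja2 and Dnajb6. A further 4 genes passed at 2 ages and 11 at 1 age, and 23 passed at none.

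**Figure D2:**
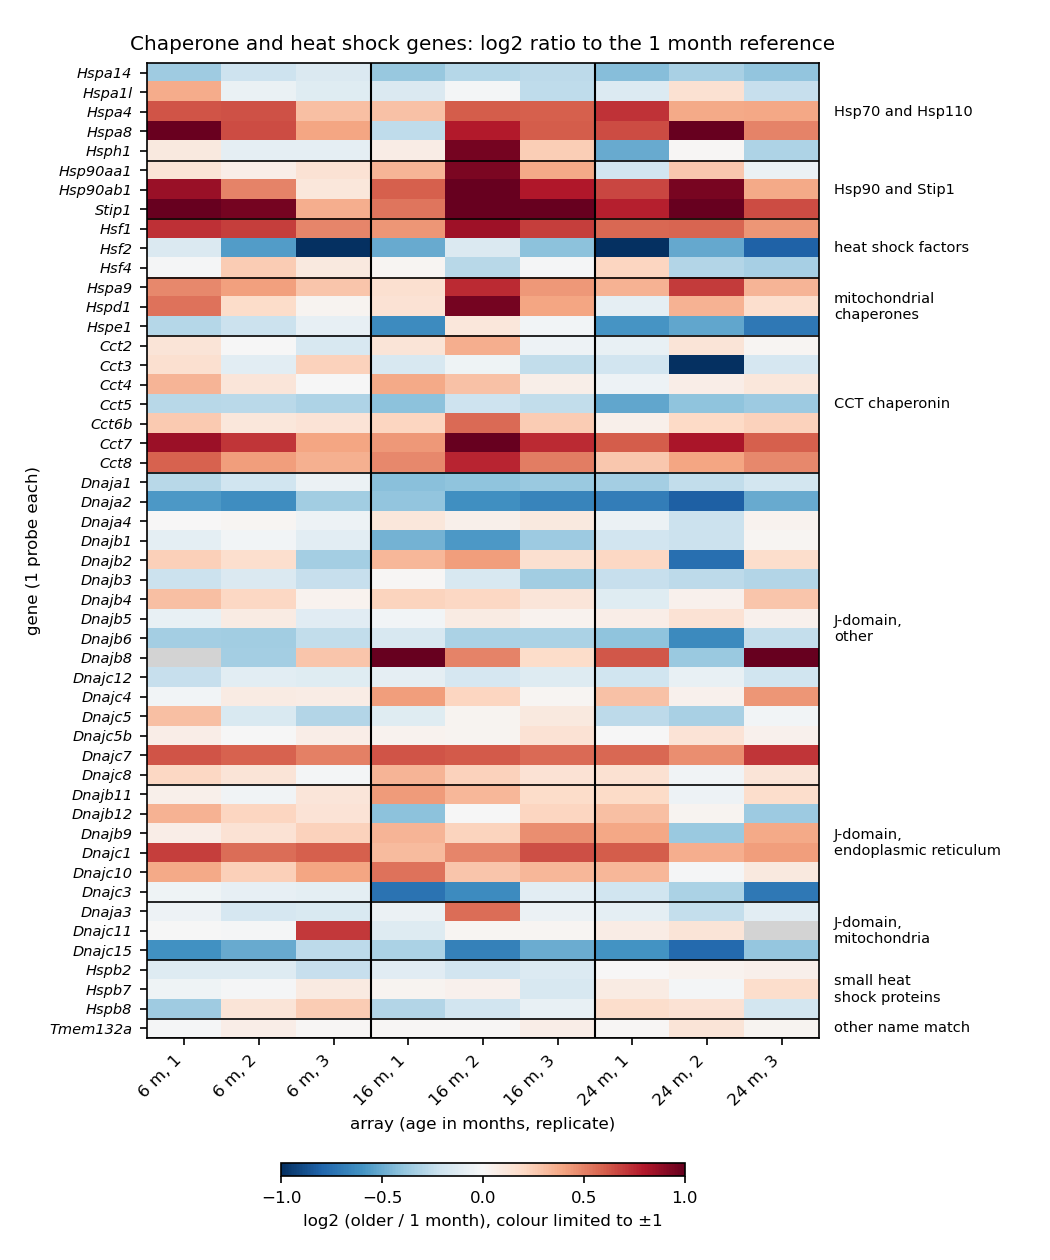
Log2 ratio to the 1 month reference of the 50 member genes (rows, 1 probe each, grouped by family) on the 9 arrays (columns, age in months and replicate); red is higher and blue lower in the older mouse, colours stop at 1 on either side, and grey marks a spot left out by the scanner's outlier flag. Rows such as Cct7 and Dnajc7 are red on all 9 arrays and rows such as Cct5 and Dnaja2 blue on all 9; the mean of Dnajc7 at 6 and 24 months and that of Cct7 at 24 months turned below 0 without intensity-dependent dye correction.

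Hsf1, the factor that switches on the heat shock response, was higher at every age by the probe that stands for it. Its log2 ratios were 0.73, 0.69 and 0.49 at 6 months, 0.44, 0.84 and 0.69 at 16 months and 0.57, 0.58 and 0.44 at 24 months. All 9 arrays lay above 0 and the ages overlapped. The rise was 1.55-fold at 6 months (0.64 ± 0.08 SE, n = 3, adjusted p = 0.00667), 1.58-fold at 16 months (adjusted p = 0.00354) and 1.45-fold at 24 months (adjusted p = 0.00619), although the median-centred value at 24 months was -0.06. A second probe for Hsf1, outside the name rule, gave 0.67, 0.70 and 0.62, past the threshold at each age. A further one was much brighter (mean log2 signal 16.18, against 9.31 for the second). It gave 0.10, 0.28 and 0.50, past the threshold at 16 and 24 months but at -0.46 and -0.76 with median centring. At 6 months it did not pass (adjusted p = 0.343), with replicate 3 at -0.09. On this probe the ages did not overlap, but 24 against 6 months did not pass (0.40, adjusted p = 0.42).

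Hsf2, a related factor active in development and germ cells, had lower signals in the older mice but was dim. Its ratios were -0.14, -0.56 and -1.23 at 6 months, -0.51, -0.14 and -0.41 at 16 months and -1.76, -0.51 and -0.81 at 24 months. All 9 were below 0, with a spread wider than that of Hsf1. In Cy3 the probe was well above background on 1 of 9 arrays, at 6 months, and not well above background on all 3 of 24 months. At 24 months its mean log2 processed signals were 7.00 in Cy5 and 5.98 in Cy3 (adjusted p in limma = 0.0256). With Cy3 set at a floor of 6.07, these signals put Hsf2 at least 1.91-fold lower. That bound holds within the processed signals only, since the difference was -0.07 with normexp and loess and 0.77 with median centring, so the direction of Hsf2 is uncertain. A second Hsf2 probe gave 0.27, 0.35 and 1.15, then -0.14, -0.04 and -0.21, then -0.05, -0.23 and -0.51, and did not pass at any age. Hsf4, best known from the lens, did not pass at any age.

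The Hsp90 branch held the largest rises. Stip1, the adaptor that carries clients from Hsp70 to Hsp90, had log2 ratios of 1.07, 0.95 and 0.37 at 6 months, 0.54, 1.59 and 1.01 at 16 months and 0.78, 1.14 and 0.65 at 24 months. All 9 arrays were above 0, 16 month replicate 2 was highest, and the ages overlapped. The rises were 1.74-fold at 6 months (0.80 ± 0.20 SE, n = 3, adjusted p = 0.043), 2.06-fold at 16 months (adjusted p = 0.0137) and 1.81-fold at 24 months (adjusted p = 0.0224). With median centring Stip1 stayed above 0 at each age (0.30, 0.54 and 0.12) but did not pass.

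Hsp90ab1, the constitutive cytosolic Hsp90, had the same order of replicates as Stip1 within each age. It stood at 0.87, 0.49 and 0.11 at 6 months, 0.60, 1.20 and 0.80 at 16 months and 0.67, 0.95 and 0.38 at 24 months. It was above 0 throughout and again highest on 16 month replicate 2. It rose 1.82-fold at 16 months (0.87 ± 0.17 SE, adjusted p = 0.013) and 1.58-fold at 24 months (adjusted p = 0.0266), where its median-centred value was -0.50, and at 6 months the mean of 0.49 did not pass (adjusted p = 0.0915). A second probe for Hsp90ab1 ranged from -0.06 to 1.25 and did not pass at any age.

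Hsp90aa1, the inducible partner gene, was near the reference except at 16 months. Its ratios were 0.13, 0.07 and 0.14 at 6 months, 0.34, 0.94 and 0.38 at 16 months and -0.19, 0.27 and -0.06 at 24 months. The 3 arrays of 16 months lay above all others. The 1.47-fold rise at 16 months (0.55 ± 0.13 SE, adjusted p = 0.0226) was -0.25 with median centring, and the values at 6 and 24 months, 0.11 and 0.0049, did not pass (adjusted p = 0.581 and 0.981).

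**Figure D3:**
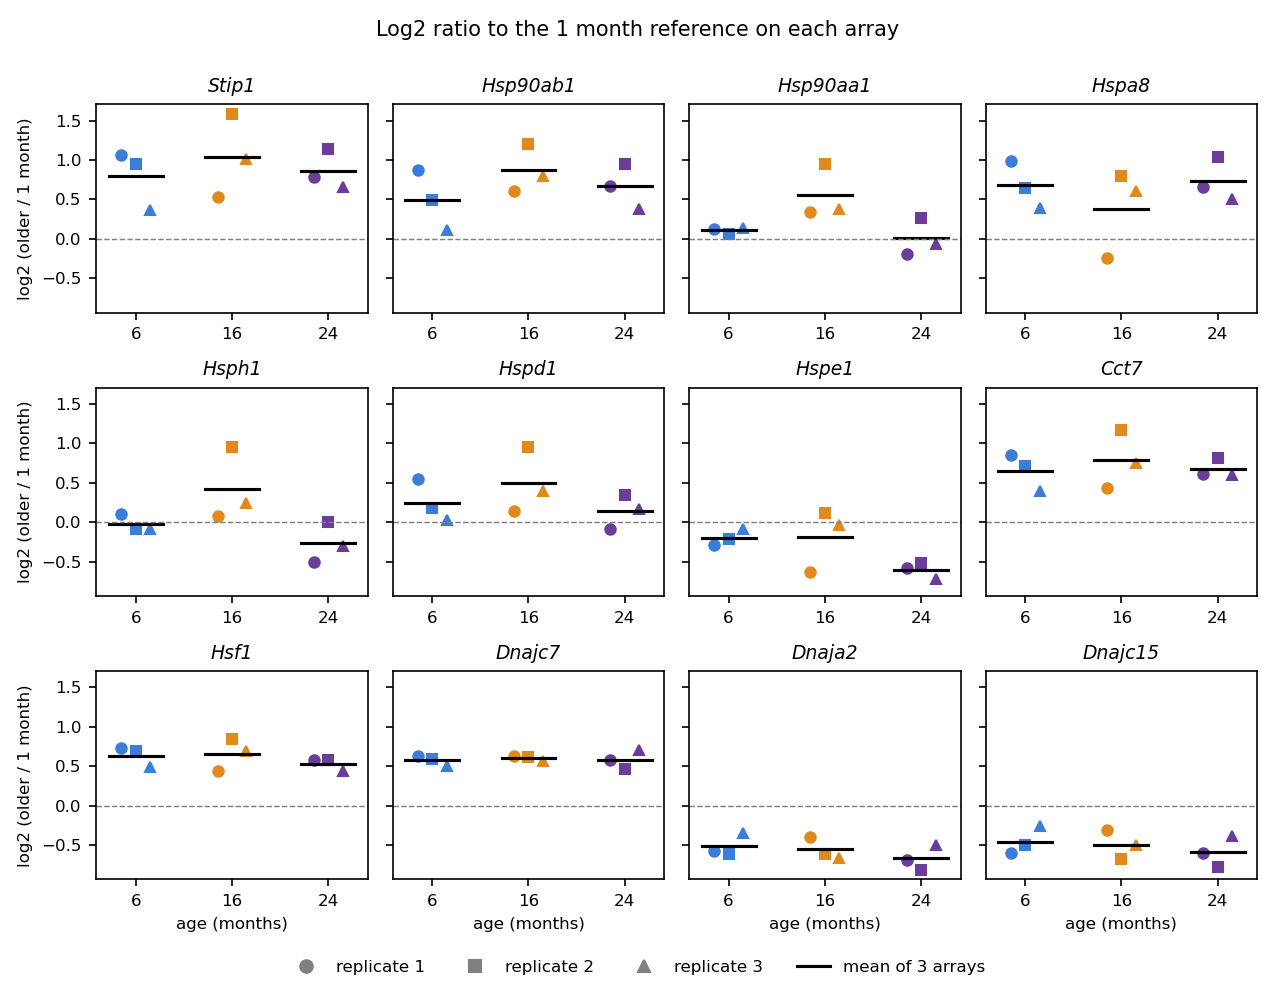
Log2 ratio to the 1 month reference (y axis) at 6, 16 and 24 months (x axis) for 12 member genes; each symbol is 1 array, its shape gives the replicate number and the black bar is the mean of 3. Stip1, Hsf1, Cct7 and Dnajc7 lie above 0 and Dnaja2 and Dnajc15 below 0 on all 9 arrays, and the square of 16 months is the highest array for Stip1, Hsp90ab1, Hsp90aa1, Hsph1 and Hspd1; the means of Hsf1, Cct7 and Dnajc7 at 24 months, and of Dnajc7 at 6 months, turned below 0 without intensity-dependent dye correction.

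Among the Hsp70 and Hsp110 genes, the exchange factor Hspa4 rose and the ribosome-associated Hspa14 fell at every age. The Hspa4 ratios were 0.63, 0.63 and 0.30 at 6 months, 0.29, 0.61 and 0.60 at 16 months and 0.72, 0.38 and 0.39 at 24 months. All were above 0 and the ages overlapped. The rise was 1.44-fold at 6 months (0.52 ± 0.10 SE, adjusted p = 0.0204) and 1.41-fold at both 16 and 24 months (adjusted p = 0.016 and 0.0138), with a median-centred value of -0.23 at 24 months. Of 3 further Hspa4 probes, 1 passed at 16 months (0.24, adjusted p = 0.0471), and the others passed at no age.

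Hspa14 had the narrowest spread of the family. It stood at -0.35, -0.21 and -0.14 at 6 months, -0.38, -0.29 and -0.27 at 16 months and -0.43, -0.33 and -0.40 at 24 months. All 9 arrays were below 0, and the ages overlapped. It was 1.18-fold lower at 6 months (-0.23 ± 0.05 SE, adjusted p = 0.0319), 1.24-fold lower at 16 months (adjusted p = 0.00944) and 1.3-fold lower at 24 months (adjusted p = 0.00467).

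Hspa8, the constitutive Hsc70 and a gene with several near-identical processed copies in the genome, passed at 24 months. Its ratios were 0.99, 0.65 and 0.40 at 6 months, -0.25, 0.79 and 0.61 at 16 months and 0.65, 1.04 and 0.50 at 24 months. The single array below 0 was 16 month replicate 1. The 1.66-fold rise at 24 months (0.73 ± 0.20 SE, adjusted p = 0.0359) was -0.57 with median centring, and the means of 0.68 at 6 months and 0.38 at 16 months did not pass (adjusted p = 0.0658 and 0.225). A second probe for Hspa8, outside the name rule, read 1.02 on that same 16 month array and passed at 16 and 24 months (0.86 and 0.66, adjusted p = 0.026 and 0.0498; 0.36 and -0.07 with median centring), so the values on replicate 1 differ between probes.

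Hsph1, the inducible Hsp110, and Hspa1l, an Hsp70 of the testis, did not pass at any age. The Hsph1 ratios were 0.10, -0.09 and -0.09, then 0.07, 0.96 and 0.25, then -0.51, 0.01 and -0.31. The highest was 16 month replicate 2. A second Hsph1 probe, outside the name rule, read 0.57 on that array, 0.44 on 24 month replicate 2 and 0.42 on 6 month replicate 3, and did not pass. Probes for the inducible Hsp70 gene Hspa1a were on the array under other names: 2 of them lay between -0.16 and 0.26 at the 3 ages and did not pass. Of 2 probes described as hsp68, an older name of an inducible Hsp70, 1 fell at 24 months (-0.31, adjusted p = 0.033; -0.08 with normexp and loess), where the other was at 0.49 and did not pass (adjusted p = 0.146). Hspa2, a testis Hsp70 also outside the name rule, rose at each age by 1 of its 2 probes (0.53, 0.41 and 0.66, adjusted p = 0.00748, 0.0104 and 0.0026), and by the other at 24 months (0.33, adjusted p = 0.0206). The first probe was dim, with a mean log2 signal of 7.44. With normexp and loess it read 0.13, 0.06 and 0.11, and the other read 0.13 at 24 months, so the size of these rises depends on the processing.

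The J-domain proteins of the cytosol and nucleus, 16 genes, gave 1 rise and 2 falls at 6 months, 2 and 4 at 16 months and 1 and 4 at 24 months, with medians of -0.03, 0.05 and -0.10. These were 18.8%, 37.5% and 31.2% of them, against 12.4%, 18% and 24.9% of all tested probes. Dnajc7, which binds both Hsp70 and Hsp90, had the smallest spread of the 12 genes that passed at all ages. It stood at 0.63, 0.59 and 0.50 at 6 months, 0.63, 0.62 and 0.57 at 16 months and 0.57, 0.47 and 0.71 at 24 months. The SD over the 9 arrays was 0.07, and the ages overlapped. It was 1.49-fold, 1.52-fold and 1.5-fold higher (0.57, 0.60 and 0.58, each ± 0.06 SE, adjusted p = 0.0038, 0.00154 and 0.00206), with median-centred values of -0.03, 0.03 and -0.38.

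Dnaja2 and Dnajb6 fell at all ages. Dnaja2, a general cytosolic partner of Hsc70, read -0.57, -0.62 and -0.35 at 6 months, -0.40, -0.61 and -0.66 at 16 months and -0.69, -0.82 and -0.50 at 24 months. No array reached 0. It was 1.43-fold lower at 6 months (-0.51 ± 0.08 SE, adjusted p = 0.0117), 1.47-fold lower at 16 months (adjusted p = 0.00592) and 1.59-fold lower at 24 months (adjusted p = 0.00341). Dnajb6, a suppressor of protein aggregation, lay between -0.64 and -0.16 on the 9 arrays and was 1.24-fold, 1.2-fold and 1.34-fold lower (adjusted p = 0.0373, 0.0472 and 0.00899), but of 2 further Dnajb6 probes 1 had positive means at all ages (0.35, 0.39 and 0.24) and neither passed. Its calls at 6, 16 and 24 months were lost under 9, 11 and 1 of the 20 alternatives run, and those of Dnaja2 under 4, 1 and 1.

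Dnaja1 and Dnajb1, the classical Hsp40 partners of Hsp70, were lowest at 16 months. Dnaja1 read -0.27, -0.20 and -0.06 at 6 months, -0.42, -0.40 and -0.37 at 16 months and -0.34, -0.24 and -0.19 at 24 months. The 3 arrays of 16 months lay below all the others. It was 1.31-fold lower at 16 months (-0.40 ± 0.05 SE, adjusted p = 0.00464) and 1.2-fold lower at 24 months (adjusted p = 0.0156), and did not pass at 6 months (-0.18, adjusted p = 0.0721). Of 2 further Dnaja1 probes, 1 also passed as lower at 16 and 24 months (-0.27 at both, adjusted p = 0.0444 and 0.0352). The other, the brightest Dnaja1 probe, lay above 0 at each age (0.27, 0.04 and 0.23) and did not pass (adjusted p = 0.0789, 0.763 and 0.0842).

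For Dnajb1 the level against the reference differed between its probes, while their mean differences between the ages were close. The probe of higher signal read -0.10, -0.03 and -0.11 at 6 months, -0.47, -0.58 and -0.36 at 16 months and -0.19, -0.21 and 0.02 at 24 months, and fell 1.39-fold at 16 months (-0.47 ± 0.06 SE, adjusted p = 0.00414). The other read 0.79, 0.74 and 0.41, then 0.02, 0.37 and 0.47, then 0.67, 0.60 and 0.62, and rose 1.56-fold at 6 months and 1.55-fold at 24 months (adjusted p = 0.0102 and 0.00626). From 6 to 16 months the first differed by -0.39 ± 0.09 and the second by -0.36 ± 0.14, and from 16 to 24 months both differed by 0.34. The unadjusted p for these were 0.00216, 0.0338, 0.00482 and 0.0396, and the adjusted p 0.769 or 0.862, so none passed. The falls of Dnaja1 and Dnajb1 at 16 months were the member calls that held under all 20 alternatives run, by the probes that stand for these genes; the other probes of both genes differ as described.

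**Figure D4:**
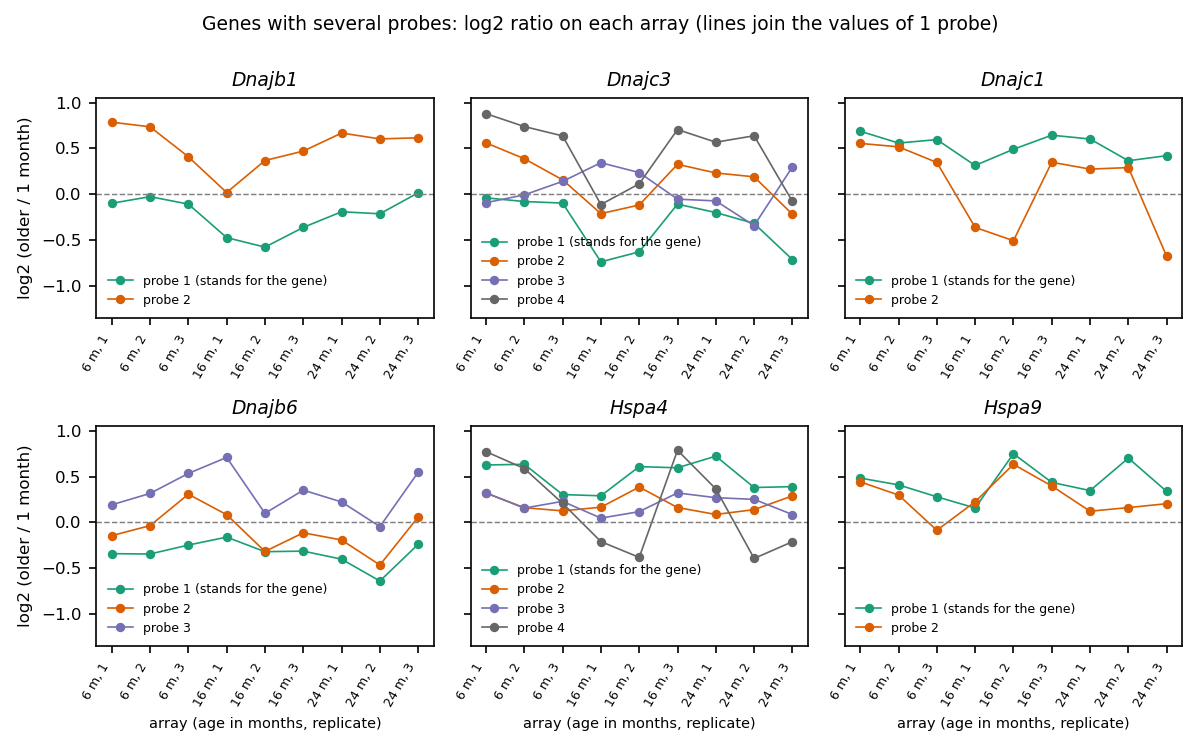
Log2 ratio to the 1 month reference (y axis) on the 9 arrays (x axis, age in months and replicate) for 6 genes with several probes; each line joins the values of 1 probe, and green is the probe of highest signal, which stands for the gene. For Dnajb1 the green line lies below 0 on all arrays but that of 24 month replicate 3, and the other line lies above 0. The Dnajb6 lines spread over both sides of 0. The 2 Hspa9 lines have close means at 16 months (0.42 and 0.45) but not at 24 months (0.16 and 0.46).

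Probes of one gene disagreed in sign for 4, 7 and 8 of 11 genes with several tested probes at 6, 16 and 24 months. Of the 6 J-domain proteins of the endoplasmic reticulum, which serve the Hsp70 of that compartment, 2 rose at 6 months, 3 rose and 1 fell at 16 months and 1 rose at 24 months. These were 33.3%, 66.7% and 16.7% of them, against 12.4%, 18% and 24.9% of all tested probes. Dnajc1 rose 1.53-fold, 1.4-fold and 1.38-fold (0.61 ± 0.07 SE at 6 months, adjusted p = 0.00574, 0.00607 and 0.00642), with values from 0.31 to 0.69 on the 9 arrays and a median-centred value of -0.31 at 24 months. A second Dnajc1 probe lay between -0.68 and 0.55 and did not pass. Dnajc10, a disulfide reductase, rose 1.26-fold at 6 months and 1.31-fold at 16 months (adjusted p = 0.0342 and 0.0168), and Dnajb11, a secreted co-chaperone, 1.24-fold at 16 months (adjusted p = 0.0195). Both of 2 brighter Dnajc10 probes outside the name rule lay below 0 at each age, 1 at -0.27, -0.22 and -0.51, past the threshold at 24 months (adjusted p = 0.0235), and the other at -0.12, -0.06 and -0.02, so the direction of Dnajc10 is uncertain. Dnajc3, also an inhibitor of the kinase PKR, fell 1.41-fold at 16 months by its brightest probe (-0.49 ± 0.13 SE, adjusted p = 0.0376), with -0.74 and -0.63 on replicates 1 and 2 and -0.11 on replicate 3, whereas another of its 4 probes rose 1.68-fold at 6 months (adjusted p = 0.0329).

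The CCT chaperonin did not move as one unit. Of 7 subunit genes, 2 rose and 1 fell at 6 months, 3 and 1 at 16 months and 2 and 1 at 24 months. These were 42.9%, 57.1% and 42.9% of them, against 12.4%, 18% and 24.9% of all tested probes. The family median of 0.15, 0.24 and 0.04 became -0.35, -0.17 and -0.66 with median centring. Cct7 read 0.85, 0.71 and 0.40 at 6 months, 0.43, 1.17 and 0.75 at 16 months and 0.61, 0.82 and 0.60 at 24 months. All 9 arrays were above 0, with 16 month replicate 2 highest. It rose 1.57-fold at 6 months (0.65 ± 0.14 SE, adjusted p = 0.0243), 1.72-fold at 16 months (adjusted p = 0.0093) and 1.6-fold at 24 months (adjusted p = 0.0134), where its median-centred value was -0.32.

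Cct8 rose and Cct5 fell at the same ages. Cct8 read 0.59, 0.42 and 0.36, then 0.48, 0.76 and 0.51, then 0.27, 0.40 and 0.48, and rose 1.37-fold, 1.5-fold and 1.3-fold (0.45 ± 0.07 SE at 6 months, adjusted p = 0.0124, 0.00369 and 0.0122), all below 0 with median centring (-0.15, -0.0038 and -0.57). Cct5 read -0.28, -0.27 and -0.31, then -0.41, -0.21 and -0.25, then -0.52, -0.40 and -0.36. No array of either gene crossed 0. Cct5 was 1.22-fold lower at 6 and 16 months (-0.29 ± 0.05 SE, adjusted p = 0.0187 and 0.0124) and 1.34-fold lower at 24 months (adjusted p = 0.00373).

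The other subunits were nearer to the reference. Cct6b, a testis form of subunit 6, rose 1.27-fold at 16 months (0.35 ± 0.08 SE, adjusted p = 0.021; -0.17 with median centring). Cct2 and Cct4 did not pass at any age, with ranges over the 9 arrays of -0.16 to 0.36 and -0.05 to 0.38. The Cct3 probe of the set read 0.16, -0.11 and 0.23, then -0.16, -0.04 and -0.24, then -0.19, -1.08 and -0.17, and did not pass at 24 months (-0.48 ± 0.17 SE, adjusted p = 0.0679). Another probe, which the files describe as Cct3 under another name, read 1.11, 0.80 and 0.30, then 0.94, 1.08 and 0.89, then 0.53, 0.44 and 0.83, and rose at each age (0.73, 0.97 and 0.60, adjusted p = 0.0193, 0.00523 and 0.0211), so the direction of Cct3 is uncertain. Tcp1, the first subunit and not matched by the name rule, rose at 16 months (0.34, adjusted p = 0.0192).

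Inside mitochondria the Hsp70 and the lid of the chaperonin parted. Hspa9, the mitochondrial Hsp70, read 0.48, 0.41 and 0.28 at 6 months, 0.16, 0.75 and 0.44 at 16 months and 0.35, 0.70 and 0.34 at 24 months, and rose 1.36-fold at 16 months (0.45 ± 0.12 SE, adjusted p = 0.0341; -0.06 with median centring) and 1.38-fold at 24 months (adjusted p = 0.026; -0.35 with median centring). Its second probe passed at 16 months (0.42, adjusted p = 0.0328). At 24 months that probe read 0.16 (0.06 with normexp and loess) and did not pass. Hspe1, the lid, a gene that also has near-identical processed copies, read -0.29, -0.21 and -0.08 at 6 months, -0.63, 0.11 and -0.03 at 16 months and -0.59, -0.52 and -0.72 at 24 months. The arrays of 24 months lay below those of 6 months, and 1 array of 16 months lay among them. It was 1.52-fold lower at 24 months (-0.61 ± 0.13 SE, adjusted p = 0.0152) and did not pass at 6 or 16 months (-0.20 and -0.18, adjusted p = 0.33 and 0.345). Hspd1, the chaperonin ring itself, read 0.54, 0.18 and 0.02, then 0.14, 0.96 and 0.39, then -0.09, 0.35 and 0.17, and did not pass (adjusted p = 0.328, 0.0697 and 0.547). Of the mitochondrial J-domain proteins, Dnajc15, an inner membrane protein that restrains respiration, lay between -0.78 and -0.26 on all 9 arrays and was 1.37-fold, 1.41-fold and 1.5-fold lower (-0.46 ± 0.10 SE at 6 months, adjusted p = 0.0272, 0.0152 and 0.0077), while Dnaja3 and Dnajc11 did not pass.

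Hspd1 and Hspe1 are transcribed in opposite directions from one shared stretch of DNA, and the promoter sequences are shown because this pair differed at 24 months while holding the same heat shock elements. The RefSeq promoter table (GRCm38.p6) held 37 of the 50 genes. A heat shock element was searched as 2 facing GAA units, GAANNTTC or TTCNNGAA, each of which reads the same on both strands, with overlapping matches counted, over the 250 bases before to 50 after each start. Matches are in capitals in these 150 bases before the start, 5′ to 3′ along the gene's strand, for Hspe1 (plus strand, chr1:55087998-55088147), Hsph1 (minus strand, chr5:149636337-149636486), Cct5 (minus strand, chr15:31601847-31601996) and Stip1 (minus strand, chr19:7040027-7040176).
Hspe1: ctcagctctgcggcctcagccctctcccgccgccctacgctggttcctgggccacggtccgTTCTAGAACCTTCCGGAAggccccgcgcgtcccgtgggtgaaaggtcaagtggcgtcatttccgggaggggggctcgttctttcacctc
Hsph1: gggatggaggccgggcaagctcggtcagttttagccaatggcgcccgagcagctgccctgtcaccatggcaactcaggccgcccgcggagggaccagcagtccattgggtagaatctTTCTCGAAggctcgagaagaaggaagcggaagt
Cct5: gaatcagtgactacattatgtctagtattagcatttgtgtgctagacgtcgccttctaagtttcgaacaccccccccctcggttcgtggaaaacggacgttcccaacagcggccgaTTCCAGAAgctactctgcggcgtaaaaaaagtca
Stip1: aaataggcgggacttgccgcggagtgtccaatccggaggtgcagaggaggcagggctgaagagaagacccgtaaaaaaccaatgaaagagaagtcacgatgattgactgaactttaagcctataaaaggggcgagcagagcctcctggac

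The Hspe1 stretch holds 3 overlapping matches that start 89 bases before its start, and the same letters begin 144 bases before a start of Hspd1 on the other strand. With these, the log2 ratios at 24 months were -0.61 for Hspe1 and 0.14 for Hspd1. Hsph1 holds 1 match before its start and an overlapping pair after it. Cct5, which fell, holds 1 match at 34 bases before its start, and Stip1, which rose more, holds none in this window. Matches lay in 13 of 52 member promoters (25%) and 4946 of 32851 promoters of the table (15.1%), and 3 or more in 4 member promoters, of Hspd1, Hspe1 and Hsph1, and 84 of all (0.256%). The Hspd1 and Hspe1 matches are the same letters and the Hsph1 windows overlap, so these promoters are not independent. By gene, 11 of 37 members (29.7%) and 4587 of 27025 genes (17%) held a match. No match was in the windows of Cct7, Cct8, Hspa4, Dnajb1, Dnajc7, Dnajc1 or Dnaja2. A match is a string of letters and not a measured binding site, and Hsp90ab1, Hsp90aa1, Hspa8 and Hsf1 were not in the table.

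Small heat shock proteins stayed close to the reference. Hspb2, a muscle form, read -0.13, -0.13 and -0.23 at 6 months, -0.11, -0.19 and -0.13 at 16 months and 4e-04, 0.04 and 0.05 at 24 months, and fell 1.12-fold at 6 months (-0.16 ± 0.04 SE, adjusted p = 0.0487). Its second probe passed at 24 months instead (-0.20, adjusted p = 0.0439). Hspb7 and Hspb8 did not pass at any age. Dnajb8, a testis J-domain protein, had the widest scatter among the J-domain genes, from -0.37 to 1.47 on the 8 arrays with an unflagged spot, and did not pass (0.64 at 16 months, adjusted p = 0.241).

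Between the older ages no member passed. At 16 against 6 months, 24 against 6 months and 24 against 16 months limma called 0 members and 0% of the 37448 probes, and this held under all alternatives run for the members. At an unadjusted p under 0.05 it gave 5 members (7.58%, against 6.38% of all probes), 2 (3.03%, against 9.11%) and 6 (9.09%, against 4.77%). The arrays of the ages compared did not overlap for 9.09%, 10.6% and 18.2% of the members, against 14%, 16% and 10.8% of all probes. The smallest p belonged to Dnajb1 and Dnaja1 at 16 against 6 months (-0.22 ± 0.08 SE for Dnaja1, adjusted p = 0.769), to Hspb2 and Cct3 at 24 against 6 months (0.19 ± 0.06 and -0.58 ± 0.23 SE, adjusted p = 0.495 and 0.544), and to Dnajb1 and Hsp90aa1 at 24 against 16 months. Hsp90aa1 and Hsph1 had all arrays of 24 months below those of 16 months (-0.55 ± 0.18 and -0.70 ± 0.23 SE), with an adjusted p of 0.862 for each.

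The highest ratios gathered on one mouse of 16 months. For 16 of the 48 member genes with a value on all 9 arrays (33.3%), the highest ratio was that of 16 month replicate 2, where 12.8% of all tested probes were highest. They included Stip1, Hsp90aa1, Hsp90ab1, Hsph1, Hspd1, Hspa9, Hspe1, Hsf1, Cct2, Cct5, Cct6b, Cct7 and Cct8. The medians of that array were 1.20 for Hsp90 and Stip1, 0.61 for Hsp70 and Hsp110, 0.75 for the mitochondrial chaperones and 0.36 for CCT, and its median over all probes was -0.01. Its haemoglobin mean of 0.56 lay below that of 16 month replicate 1 (0.97). Without this array 5 of the 22 genes that passed at 16 months still did, the J-domain falls of Dnaja1 and Dnajb1 among them, and the share of all probes that passed dropped likewise, from 18% to 3.31%.

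**Figure D5:**
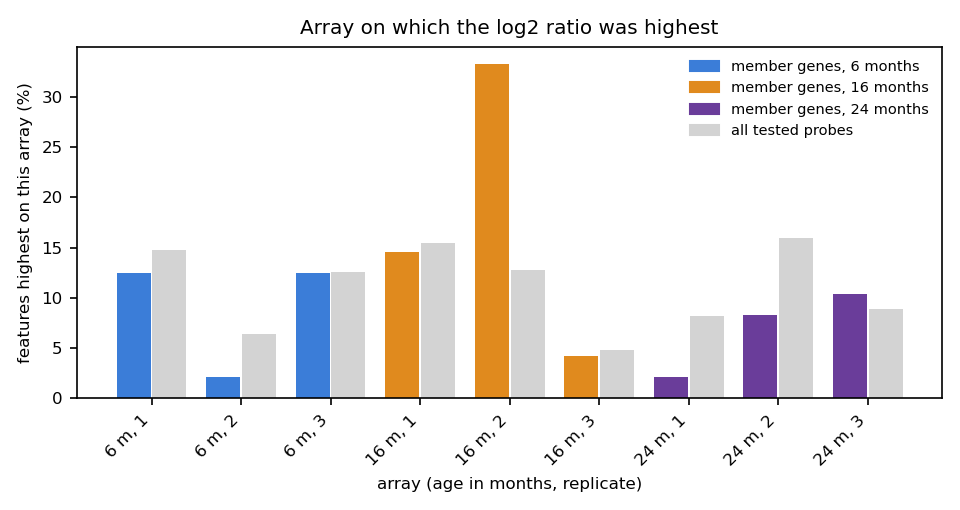
Percent of features (y axis) whose highest log2 ratio fell on each of the 9 arrays (x axis, age in months and replicate), for the 48 member genes with a value on every array (coloured by age) and all tested probes (grey). The bar of 16 month replicate 2 reaches 33.3% for the members against 12.8% for all probes, and no other member bar exceeds 14.6%.

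The spread of the reference over the arrays holds differences between 1 month mice if the labels are right, and only repeated measurement if it is a pool. It is therefore not read here as a measure of 1 month mice. Across the 9 Cy5 channels the median SD of a member's log2 level, relative to the channel's median, was 0.16, against 0.25 within an age in Cy3; for all tested probes the values were 0.17 and 0.24. For Stip1 the 2 SDs were 0.19 and 0.55, and for Hspa8 0.19 and 0.45.

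The proteins that work with these chaperones, a list that holds no member, leaned upwards in the same scaling. Of 29 co-chaperones and related genes on the array, 5 rose and 1 fell at 6 months, 13 and 3 at 16 months and 9 and 4 at 24 months. Rises made up 17.2%, 44.8% and 31% of them, against 7.61%, 11.4% and 11.6% of all tested probes. Falls made up 3.45%, 10.3% and 13.8%, against 4.76%, 6.59% and 13.3%. The median of 0.19, 0.29 and 0.16 became -0.22, -0.18 and -0.56 with median centring. Stub1, the ubiquitin ligase that sends Hsp70 clients to degradation, rose at each age (0.77, 0.96 and 0.87, adjusted p = 0.0109, 0.0035 and 0.00441), as did Cdc37, which brings kinases to Hsp90 (0.75, 0.81 and 0.71, adjusted p = 0.021, 0.0111 and 0.0148), and Bag3, an exchange factor of Hsp70 (0.58, 0.82 and 0.74, adjusted p = 0.0264, 0.00624 and 0.00768). All 3 stayed above 0 with median centring, between 0.13 and 0.76. For Bag3 that scaling gave 0.58, 0.63 and 0.76, so staying above 0 there is no sign of stability. With normexp and loess Bag3 read 0.24, 0.38 and 0.32, Stub1 0.69, 0.87 and 0.73, and Cdc37 0.55, 0.61 and 0.49. Ppid, a cyclophilin of Hsp90, fell at each age (-0.34, -0.24 and -0.38, adjusted p = 0.00995, 0.0195 and 0.00427), and the prefoldin subunits Vbp1 (-0.34 and -0.36, adjusted p = 0.00891 and 0.00685) and Pfdn1 (-0.64 and -0.69, adjusted p = 0.0169 and 0.0111), which pass clients to CCT, fell at 16 and 24 months. Of 15 immediate early genes, which respond to handling of cells, 3 rose and 0 fell at 6 months, 3 and 1 at 16 months and 3 and 0 at 24 months. These were 20%, 26.7% and 20% of them, against 12.4%, 18% and 24.9% of all tested probes. The part of these genes in the members' values was not tested.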

How the data were processed

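RNA of thymocytes from 3 mice each of 6, 16 and 24 months (Cy3) was hybridised with 1 month RNA (Cy5) on 9 Agilent arrays, after linear amplification, per the labels. Both samples of an array carry an identical file on 9 of 9 arrays. The deposited scanner files hold intensity values per feature; the processed signals had been background-subtracted and dye-normalised by LOWESS (smooth factor 0.25) in Feature Extraction 7.5.1, per the file headers, while the submitters' processing notes give 7.1. In the authors' deposited table each channel has a score, which was found to equal the log10 processed signal as a z-score, with column medians of -0.054 to 0.011; its direction follows from the channel.

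Ratios were log2(Cy3/Cy5) of the processed signals; flagged outlier spots (34 to 52 on most arrays, 159 and 179 on those of 24 month replicates 1 and 3) were left out and spots of a probe averaged. Tested probes were well above background on all 3 Cy3 channels of some age or on all 9 Cy5 channels. limma 3.58.1 in R 4.3.3 fitted 1 mean per age (prior degrees of freedom 1.94, residual 6), two-sided, with Benjamini-Hochberg adjustment over 37448 probes. p-values of an age against the reference rest on the spread of the ratios within each age, pooled over the 3 ages. That spread holds differences between older mice and between the reference channels of the arrays, with no separate estimate for 1 month mice. For a gene with several member probes the one of highest mean signal stands for it. All 67 member probes matched a current symbol in RefSeq; older names in the files are Hspcb (Hsp90ab1), Hspca (Hsp90aa1), Hsp105 (Hsph1), Hspa9a (Hspa9) and Dnajd1 (Dnajc15).

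Named were a set of core genes, and per comparison up to 5 rises and 5 falls past the threshold, or the 2 smallest p where none passed. The members and lists were chosen with earlier results of these data known. Alternatives were other background corrections, scalings, filters, a replicate block, haemoglobin as a covariate, fewer arrays and each array left out. The model was tested on simulated data. Tables and figures were made in Python 3.11.15 with numpy 2.4.6, pandas 2.3.3 and matplotlib 3.10.9.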

Additional observations from a re-analysis of the deposited data

Results flagged for a closer look

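In 3 of the 50 member genes the 1 month reference level of 1 array stood apart from the other 8, by Dixon's criterion, which flags about 1 in 20 groups by chance. Levels are log2 processed Cy5 signals relative to the median of the channel. Hsp90ab1 was at 4.88 on the array of 24 month replicate 2, where the nearest of the others was 5.14 and the highest 5.34. Tmem132a was at 2.01 on the array of 24 month replicate 1, against 2.56 for the nearest and 2.86 for the highest. Hspb2 was at -0.63 on that same array, against -0.08 and 0.38. On these arrays the log2 ratio of Hsp90ab1 was 0.95, the highest of its age, while those of Tmem132a (0.0089) and Hspb2 (4e-04) were the lowest of their age, with Cy3 levels of 1.97 and -0.68.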

How the results depend on the processing

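Alternatives were run for 90 values of 28 named genes, of which 50 passed. Median centring without intensity-dependent dye correction gave 27 calls among the members at 6 months and 39 at 24 months, and turned the members' medians to -0.16, -0.15 and -0.34 at 6, 16 and 24 months; the medians of 24 against 6 and against 16 months moved to -0.24 and -0.20. It reversed 27 gene values, at 6 months Cct8 (-0.15), Hsp90aa1 (-0.65), Hsf2 (0.65) and Dnajc7 (-0.033), at 16 months Cct3 (0.38), Cct6b (-0.17), Cct8 (-0.0038), Hsp90aa1 (-0.25), Hsf2 (0.54), Hspa9 (-0.057) and Dnajc1 (-0.018), and at 24 months Cct2 (-1.06), Cct3 (0.54), Cct4 (-0.77), Cct6b (-0.66), Cct7 (-0.32), Cct8 (-0.57), Hspa4 (-0.23), Hspa8 (-0.57), Hsp90aa1 (-1.31), Hsp90ab1 (-0.50), Hsf1 (-0.063), Hsf2 (0.77), Hspa9 (-0.35), Hspd1 (-0.46), Dnajc1 (-0.31) and Dnajc7 (-0.38). The cause was not tested. No other alternative reversed a gene value. Haemoglobin as a covariate left 2 calls at 6 months and 15 at 16 months. Fitting only the 3 arrays of an age, which leaves fewer degrees of freedom, left 4, 8 and 0, and at 24 months 0 of 19 genes. Of all tested probes, 3.02%, 9.44% and 0% passed in that fit. With 1 array left out in turn the calls ran from 2 to 17 at 6 months, 5 to 24 at 16 months and 10 to 21 at 24 months. The share of all tested probes ran from 0.774% to 14.4%, 3.31% to 20.6% and 9.36% to 23.3%. An adjusted p under 0.1 gave 24, 30 and 28, with 22.2%, 27.3% and 36.4% of all tested probes. Same-numbered arrays of different ages correlated at -0.31 to 0.10 over 9 pairs, so the numbers do not pair the mice. The replicate block gave 12, 19 and 19 calls, with 6.48%, 13.5% and 19.9% of all tested probes. Scan date as a block was not run because the files give no scan dates. Hsf2 was the member for which signal over background set the limit.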
